A study of Mus musculus with 12 samples.

Results

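The V-ATPase, the cathepsins and the abundant proteins of the lysosomal membrane were followed in 2 cell fractions of the mouse hippocampus. The genes were chosen by name: protein-coding genes whose mouse symbol starts with Atp6v0, Atp6v1 or Atp6ap, 12 cathepsins (Ctsa, Ctsb, Ctsc, Ctsd, Ctse, Ctsf, Ctsh, Ctsk, Ctsl, Ctso, Ctss and Ctsz), and Lamp1, Lamp2, Cd68, Scarb2 and Laptm5. Of 43 such genes, 40 were listed in the count tables of both fractions, among 25442 genes that both tables list. These are 8 genes of the membrane sector V0, 11 of the catalytic sector V1, 3 accessory genes, 12 cathepsins, 5 membrane proteins and Atp6v1fnb, which matches by name only and encodes no subunit. Of the other 3, Atp6v1b1 and Atp6v1g3 have no row in either table used here, and Atp6v0a4 is listed for the CD11b fraction alone, with 7 counts in GFP-2329, 4 in A2A-2347 and 0 in the other CD11b libraries.

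The animals were male C57Bl6/J mice that received an AAV2/9 vector in the CA1 area on both sides at 2 months of age and were sampled 2 months later, at 4 months. The vector carried either the adenosine A2A receptor (AAV-A2A) or GFP (AAV-GFP), in both cases behind GfaABC1D, a promoter chosen to be active in astrocytes, so the control animals carried a vector as well. Cells of dissected hippocampi were bound to magnetic beads against ACSA-2, an antigen on the astrocyte surface, and CD11b cells, meant as microglia, were then bound from the suspension that ACSA-2 beads had left behind. Each fraction and vector had 3 libraries, named here by vector and the number in the label, and the numbers differ between the fractions. The labels do not say whether the fractions share animals. In the ACSA-2 fraction A2A-309, A2A-310 and A2A-313 stood against the controls GFP-303, GFP-306 and GFP-307. In the CD11b fraction A2A-2343, A2A-2344 and A2A-2347 stood against GFP-2328, GFP-2329 and GFP-2331. Total counts on genes lay between 33937067 and 53206974 per library.

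The lysosome is the acidic compartment in which cells break down what they take up and what autophagy delivers. The V-ATPase keeps it acidic: the V1 sector hydrolyses ATP on the cytosolic side, and the turning of its rotor drives protons through the V0 sector in the membrane, whose a subunit forms the proton path and has several paralogs that place the pump in different membranes. Cathepsins are the proteases that work in this acid, while LAMP proteins line the membrane. Microglia, as phagocytes, are known for a large lysosomal compartment, and CD68 is a common marker of it.

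Levels are given as CPM (counts per 1000000) after TMM scaling of all 12 libraries together. A gene was called when its Benjamini-Hochberg adjusted p in edgeR's quasi-likelihood test, over all tested genes, was under 0.05 and its log2 fold change (log2 FC) was above 0.32 in size. The receptor transcript marked the vector in the ACSA-2 fraction: Adora2a was at 25.0, 23.2 and 25.6 CPM in the AAV-GFP libraries and at 763.9, 654.9 and 926.5 CPM with AAV-A2A (log2 FC 5.02 ± 0.21, SE; edgeR adjusted p = 1.55e-05). In the CD11b fraction it lay between 3.77 and 8.3 CPM with AAV-GFP and between 15.0 and 45.2 CPM with AAV-A2A.

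The CD11b libraries were of different makeup. The 10 markers of the choroid plexus, the epithelium that secretes cerebrospinal fluid, summed to 106888 CPM in GFP-2328, 86608 CPM in GFP-2329 and 57870 CPM in A2A-2347, against 151 CPM in GFP-2331, 122 CPM in A2A-2343 and 28.1 CPM in A2A-2344. The 15 microglia markers went the other way, at 12673, 26330 and 30424 CPM in the first 3 of these libraries and at 94234, 98129 and 71133 CPM in the last 3. The libraries rich in choroid plexus markers are therefore 2 of the 3 controls and 1 of the 3 AAV-A2A libraries, and results that rest on them are also given without them, from 2 AAV-A2A libraries and 1 control. In the ACSA-2 libraries the microglia markers summed to 585 to 1053 CPM, with all 15 above 0 in every library, and 13 astrocyte markers to 27870 to 43483 CPM, against 377 to 784 CPM in the CD11b fraction. In such bulk libraries fewer cells of a type and less RNA per cell cannot be told apart.

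The start regions of 4 genes are shown because the results below turn on them: Atp6v0a1 and Atp6v1a are the members that fell with AAV-A2A in the ACSA-2 fraction, and Ctss and Laptm5 differ most between the fractions. Each run holds 250 bases before and 50 bases after the RefSeq start of the gene in GRCm38.p6, on the gene's own strand, at chr11:101010148-101010447 (+) for Atp6v0a1, chr16:44139210-44139509 (-) for Atp6v1a, chr3:95526536-95526835 (+) for Ctss and chr4:130913066-130913365 (+) for Laptm5. The Ensembl gene models used for the counts begin elsewhere for some of them: Atp6v0a1 spans chr11:101009452-101063719 and Atp6v1a chr16:44085402-44139705. Capitals mark matches, on either strand, to the letters searched.
Atp6v0a1: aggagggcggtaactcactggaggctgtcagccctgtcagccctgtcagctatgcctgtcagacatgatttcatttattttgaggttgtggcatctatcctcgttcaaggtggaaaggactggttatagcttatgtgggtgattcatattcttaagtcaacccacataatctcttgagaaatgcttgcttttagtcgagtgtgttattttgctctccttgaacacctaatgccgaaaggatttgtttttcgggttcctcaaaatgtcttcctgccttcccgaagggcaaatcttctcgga
Atp6v1a: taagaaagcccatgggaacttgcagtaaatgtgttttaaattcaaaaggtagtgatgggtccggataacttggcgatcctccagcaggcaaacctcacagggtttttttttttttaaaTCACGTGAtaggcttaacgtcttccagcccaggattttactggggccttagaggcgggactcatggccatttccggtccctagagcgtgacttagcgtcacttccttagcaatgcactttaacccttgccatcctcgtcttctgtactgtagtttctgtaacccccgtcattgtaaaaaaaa
Ctss: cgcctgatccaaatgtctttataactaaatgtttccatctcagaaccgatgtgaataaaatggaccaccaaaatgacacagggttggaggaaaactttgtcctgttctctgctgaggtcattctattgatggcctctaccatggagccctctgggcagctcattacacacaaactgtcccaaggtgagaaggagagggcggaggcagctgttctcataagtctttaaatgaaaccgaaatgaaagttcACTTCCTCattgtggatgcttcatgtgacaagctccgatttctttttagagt
Laptm5: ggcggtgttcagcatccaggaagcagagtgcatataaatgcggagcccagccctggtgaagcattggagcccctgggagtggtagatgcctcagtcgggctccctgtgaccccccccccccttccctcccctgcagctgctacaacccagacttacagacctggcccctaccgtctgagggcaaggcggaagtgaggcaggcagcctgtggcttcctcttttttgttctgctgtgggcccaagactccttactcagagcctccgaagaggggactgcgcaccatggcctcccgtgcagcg
Letters were searched on both strands. CACGTG, the E-box core that basic helix-loop-helix factors read, was in 7.15% of 32851 start windows of the same length, and TCACGTGA, which contains it and is the centre of the CLEAR element read by TFEB, in 0.974%. TGACGTCA, the cAMP response element, was in 1.79% and GAGGAAGT, a core read by PU.1 in myeloid cells, in 3.20%. Windows were found for 30 of the 40 genes. Of these 30, CACGTG was found for Atp6v0b, Atp6v0d1, Atp6v0e, Atp6v1a, Ctsa, Ctsd, Ctsf, Ctsl and Lamp1, and TCACGTGA for 5 of them, Atp6v0d1, Atp6v0e, Atp6v1a, Ctsa and Ctsd. GAGGAAGT was found for Ctsc and Ctss, and TGACGTCA for 0 of 30. These matches describe the letters in the windows only.

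In the ACSA-2 fraction AAV-A2A went with lower transcript levels of 2 V-ATPase subunits, while the summed level of the subunits overlapped with the controls and no accessory gene, cathepsin or membrane protein was called. Of the 40 genes, 36 passed the filter on low counts, and 2 were called, both lower. Over all 16451 tested genes 3.36% were called and 3.19% were called lower. The 19 subunit genes together made up 3257, 3079 and 2589 CPM with AAV-GFP and 2638, 2878 and 3063 CPM with AAV-A2A, so the groups overlapped in the sum.

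Atp6v0a1, which encodes the a1 paralog of the proton-path subunit, known for its place in synaptic vesicles and lysosomes of the brain, was at 220.1, 246.8 and 182.9 CPM in the controls and at 64.5, 19.0 and 46.4 CPM in A2A-309, A2A-310 and A2A-313. All 3 AAV-A2A libraries lay below the lowest control, and A2A-310 was the lowest. The gene fell by 2.30 ± 0.38 (SE, n = 3 per group) on the log2 scale, a 4.91-fold difference (edgeR adjusted p = 0.0101). The adjusted p was 0.0548 without GFP-306 and 0.0566 without A2A-313, so the call was lost there with the direction and size kept. DESeq2 also called it (adjusted p = 7.81e-08).

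Atp6v1a, the catalytic A subunit that binds and hydrolyses ATP, was at 144.5, 174.2 and 139.7 CPM with AAV-GFP and at 81.4, 75.7 and 82.4 CPM with AAV-A2A. The AAV-A2A libraries were close to each other and all below the controls. It fell by 0.91 ± 0.17 (SE, n = 3 per group) on the log2 scale (edgeR adjusted p = 0.0183). This call rested on few libraries: leaving out GFP-306, GFP-307, A2A-309 or A2A-310 gave adjusted p values of 0.0999, 0.0517, 0.0689 and 0.0859, and a fit of all 12 libraries together gave 0.641. Its partner in the catalytic hexamer, Atp6v1b2, had a log2 FC of -0.03 ± 0.24.

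Both genes have long transcripts, with 6556 bases of exon for Atp6v0a1 and 6044 for Atp6v1a. Transcript length moved with the vector difference across the ACSA-2 table: 5.92% of the genes with at least 5000 bases of exon were called lower, against 2.12% of those with 2000 to under 5000 and 0.408% of the shorter ones, and the median log2 FC of these classes was -0.10, 0.04 and 0.15. With each library's trend on length and GC content removed, both genes were still called, at adjusted p values of 0.0115 for Atp6v0a1 and 0.0374 for Atp6v1a. Of the 13 tested members with at least 5000 bases of exon, these were the 2 called and the median log2 FC was 0.09.

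**Figure D1:**
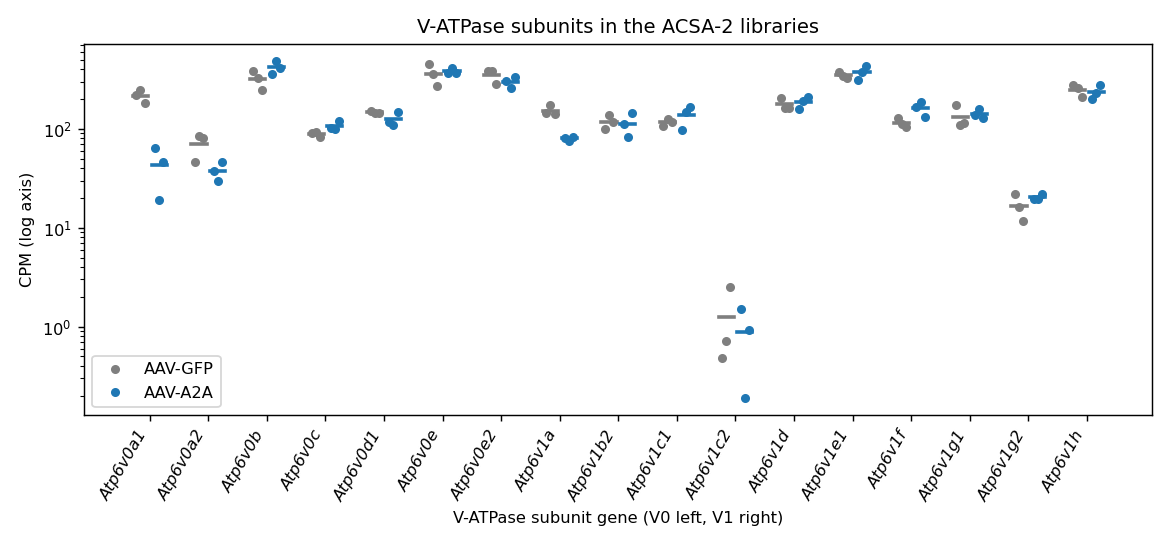
Levels of the 17 V-ATPase subunit genes tested in the ACSA-2 fraction, in CPM on a log axis, with 1 point per library (grey AAV-GFP, blue AAV-A2A) and a bar at the mean of each group of 3. Atp6v0a1 and Atp6v1a show the AAV-A2A points below all control points, and most other subunits overlap.

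The remaining V0 genes followed no common direction. Atp6v0a2, the paralog of a1 that is known mainly from the Golgi and endosomes, was at 46.2, 84.9 and 80.5 CPM with AAV-GFP and at 37.1, 29.6 and 46.5 CPM with AAV-A2A, with the highest treated library just above the lowest control (log2 FC -0.87 ± 0.28; edgeR adjusted p = 0.18). As a share of the a1 and a2 levels per length, Atp6v0a1 made up 83.0, 74.9 and 70.0% in the controls and 64.1, 39.7 and 50.5% with AAV-A2A. The groups did not overlap in this share, which is computed from the same Atp6v0a1 values and is not separate support. Atp6v0b, a proteolipid of the rotor ring and the V0 gene with the highest level per length in ACSA-2 controls (155.5 ± 33.8 CPM per kb, SD, n = 3), was at 382.4, 329.3 and 245.1 CPM against 359.3, 486.4 and 408.8 CPM with AAV-A2A (log2 FC 0.42 ± 0.21; adjusted p by edgeR 0.452). Atp6v0c, the other proteolipid, Atp6v0d1, Atp6v0e and Atp6v0e2 had log2 FC values between -0.21 and 0.30, none called.

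In V1, the member with the highest level per length in ACSA-2 controls was Atp6v1g1, a stalk subunit (117.0 ± 32.3 CPM per kb). It was at 175.0, 108.1 and 115.4 CPM with AAV-GFP and at 139.5, 158.7 and 128.6 CPM with AAV-A2A, which overlap. Atp6v1f, a subunit of the central stalk, was at 128.6, 112.9 and 105.5 CPM against 165.1, 186.9 and 133.2 CPM. These groups did not overlap, but the difference was not called (log2 FC 0.51 ± 0.18; edgeR adjusted p = 0.236). Atp6v1g2, the G paralog known from neurons, was low in both groups, at 11.6 to 21.7 CPM and 19.5 to 21.8 CPM. Across the 10 tested V1 genes 6 had a log2 FC above 0 and 4 below, with a median of 0.12, beside 0.02 for all genes tested.

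None of the 11 tested cathepsins was called with AAV-A2A in the ACSA-2 fraction by edgeR, where 2 had an unadjusted p under 0.05, Ctsc and Ctsk; DESeq2 called 0 as well. Of the 11, 10 had a log2 FC above 0, with a median of 0.13. Over all 16451 tested genes 8488 were above 0, with a median of 0.02. Ctsz, a carboxypeptidase and the cathepsin with the highest level per length in ACSA-2 controls (276.2 ± 49.4 CPM per kb), was at 402.2, 467.0 and 324.9 CPM with AAV-GFP and at 356.7, 404.0 and 486.1 CPM with AAV-A2A (log2 FC 0.09 ± 0.20). Ctsb, Ctsd and Ctsl, the proteases that carry out much of lysosomal proteolysis, had log2 FC values of 0.40 ± 0.19, 0.06 ± 0.20 and 0.13 ± 0.17. Ctsk, the collagen-degrading cathepsin of osteoclasts, was low, at 7.9 to 20.9 CPM against 5.15 to 7.02 CPM (log2 FC -1.13 ± 0.43; edgeR adjusted p = 0.282).

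Among the membrane proteins, Lamp1, the most abundant of them per length here (394.5 ± 18.9 CPM per kb in controls), was at 997.7, 1091.7 and 1076.5 CPM with AAV-GFP and at 1044.3, 1081.9 and 1562.7 CPM with AAV-A2A, where A2A-313 alone stood out. Cd68, the phagocyte marker, was at 24.8, 20.8 and 36.3 CPM against 73.9, 56.9 and 26.6 CPM (log2 FC 0.97 ± 0.36; edgeR adjusted p = 0.273). A2A-309 and A2A-310 were above all controls and A2A-313 was among them. Laptm5, a lysosomal protein of blood-derived cells and microglia, was at 46.8, 56.1 and 83.6 CPM against 52.0, 21.5 and 35.5 CPM (log2 FC -0.75 ± 0.34; adjusted p by edgeR 0.39). Since the microglia markers were present at 585 to 1053 CPM in these libraries, the cells that Cd68 and Laptm5 transcripts came from were not tested.

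Counted over all roles, 3 of 36 members were higher in every AAV-A2A library than in any ACSA-2 control (Atp6v0c, Atp6v1f and Ctsc) and 3 were lower (Atp6v0a1, Atp6v1a and Ctsk). Over all genes tested these shares were 8.61% and 10.9%. The median log2 FC of the 36 was 0.11.

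Among the members, 5 were too low for at least one fraction's test. Atp6v0d2, the d paralog of osteoclasts and kidney, had 0, 5 and 2 counts in the ACSA-2 controls, 0 in all 3 treated libraries, 0, 0 and 3 in the CD11b controls and 0, 10 and 121 in A2A-2343, A2A-2344 and A2A-2347. Atp6v1fnb had 0 to 9 counts in any library. Atp6v1e2, a testis paralog of the E subunit, had 6, 31 and 11 counts in ACSA-2 controls and 0 in the 3 AAV-A2A libraries, and 33, 8 and 0 against 0, 0 and 3 in the CD11b fraction. Ctse, an aspartic protease of immune and gastric cells, had 0, 33 and 0 against 0, 17 and 0 counts in the ACSA-2 fraction. Atp6ap1l, a relative of Atp6ap1, had 93, 2 and 0 counts in the CD11b controls and 0, 0 and 6 with AAV-A2A.

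In the CD11b fraction 0 of the 36 tested members were called between the vectors by edgeR, where 7 had an unadjusted p under 0.05, and 0% of all 16949 tested genes were called, with 2704 at an unadjusted p under 0.05. limma-voom called 0 members, and edgeR called 0 without the libraries rich in choroid plexus markers. DESeq2 called 1, Atp6v0a2, with 2.9% of all genes called. The CD11b libraries differed from each other within a vector far more than the ACSA-2 libraries did. The 12 cathepsins summed to 9911, 16187 and 42369 CPM in the controls and 47991, 29673 and 16503 CPM with AAV-A2A, following the order of the microglia markers rather than the vector: the lowest 3 sums are those of the libraries rich in choroid plexus markers.

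Atp6v0a2 had the smallest p in this comparison. It was at 88.9, 87.4 and 155.5 CPM in GFP-2328, GFP-2329 and GFP-2331 and at 235.9, 414.5 and 305.2 CPM in A2A-2343, A2A-2344 and A2A-2347. All treated libraries lay above all controls, the one rich in choroid plexus markers included. Its log2 FC was 1.51 ± 0.39 (SE, n = 3 per group; edgeR adjusted p = 0.28, unadjusted 0.00619; DESeq2 adjusted p = 0.0405). Without the libraries rich in choroid plexus markers it was 1.04, from 2 AAV-A2A libraries against 1 control. The exons of Atp6v0a2 share 663 bases with a gene on the opposite strand, and whether reads were counted by strand is not given in the sources used here.

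Atp6v0e2, a paralog of the small e subunit that is prominent in brain, was at 25.2, 39.8 and 18.7 CPM with AAV-GFP and at 14.7, 11.9 and 11.8 CPM with AAV-A2A (log2 FC -1.16 ± 0.38; edgeR adjusted p = 0.28). Atp6v1g2 was at 25.8, 23.2 and 12.5 CPM against 2.79, 6.51 and 9.12 CPM (log2 FC -1.75 ± 0.58; edgeR adjusted p = 0.282). In both genes the treated libraries lay below all controls, and the 2 controls rich in choroid plexus markers were the highest. The 12 neuron markers, of which Atp6v1g2 is not one, summed to 156, 230 and 32.0 CPM in the controls and 14.5, 17.7 and 6.22 CPM with AAV-A2A, and the part of this in the 2 genes was not tested. Without the libraries rich in choroid plexus markers the log2 FC was -0.51 for Atp6v0e2 and -1.45 for Atp6v1g2.

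Cd68 was at 240.2, 390.3 and 2086 CPM in the CD11b controls and at 2160, 1117 and 557.9 CPM with AAV-A2A. The groups overlapped through GFP-2331, which lay above A2A-2344 and A2A-2347. The log2 FC was 0.48 ± 0.89 (edgeR adjusted p = 0.815). Without the 3 libraries rich in choroid plexus markers it was -0.37. Ctss, a protease of antigen-presenting cells and the cathepsin with the highest level per length in CD11b controls (4439 ± 3851 CPM per kb, SD, n = 3), was at 1819, 4383 and 11883 CPM with AAV-GFP and at 15088, 6521 and 3167 CPM with AAV-A2A (log2 FC 0.42 ± 0.88). Laptm5, the highest membrane protein per length (911.7 ± 946.6 CPM per kb), was at 940.1, 1861 and 7560 CPM against 8870, 6940 and 2969 CPM (log2 FC 0.84 ± 0.87). Ctsk was at 5.42, 3.11 and 3.84 CPM against 0.057, 0.473 and 1.29 CPM, lower in all treated libraries (log2 FC -2.71 ± 1.06; edgeR adjusted p = 0.297). Without the libraries rich in choroid plexus markers the log2 FC was -0.16 for Ctss, 0.04 for Laptm5 and -3.86 for Ctsk (edgeR adjusted p = 0.676 for Ctsk), and 0 members were called.

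**Figure D2:**
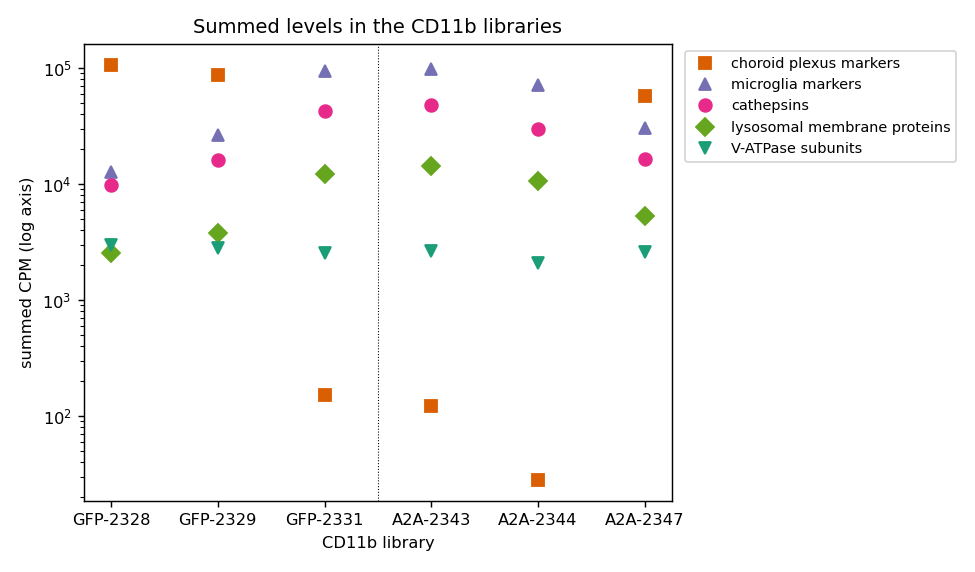
Summed CPM (log axis) in each of the 6 CD11b libraries, AAV-GFP left and AAV-A2A right of the dotted line, for 10 choroid plexus markers, 15 microglia markers, 12 cathepsins, 5 lysosomal membrane proteins and 19 V-ATPase subunits. Cathepsins and membrane proteins are low in the libraries where choroid plexus markers are high, while the subunit sum stays between 2109 and 2971 CPM.

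Single subunit genes had the following levels. Atp6v1f, the V1 gene with the highest level per length in CD11b controls (111.9 ± 15.8 CPM per kb), was at 117.1, 136.6 and 103.1 CPM with AAV-GFP and at 77.6, 33.0 and 64.1 CPM with AAV-A2A (log2 FC -1.05 ± 0.39; edgeR adjusted p = 0.288). Atp6v1a was at 231.1, 154.5 and 64.2 CPM against 97.3, 71.8 and 288.1 CPM, with the 3 highest values in the libraries rich in choroid plexus markers. Atp6v0a1 was at 151.1, 131.9 and 183.3 CPM against 214.9, 246.3 and 304.6 CPM, higher in all treated libraries (log2 FC 0.71 ± 0.33; adjusted p by edgeR 0.344). Without the libraries rich in choroid plexus markers the log2 FC was -0.92 for Atp6v1f, 0.38 for Atp6v1a and 0.31 for Atp6v0a1, none called.

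Of the 36 tested members, 3 were higher in every AAV-A2A library than in any CD11b control (Atp6v0a1, Atp6v0a2 and Lamp2) and 8 were lower (Atp6v0b, Atp6v0e, Atp6v0e2, Atp6v1c2, Atp6v1f, Atp6v1g1, Atp6v1g2 and Ctsk). Over all genes tested the shares were 12.6% and 10.9%. The median log2 FC was -0.61 over the 17 tested subunits, 0.48 over the cathepsins and 0.51 over the membrane proteins, beside -0.05 for all genes. Leaving out the libraries rich in choroid plexus markers, these medians were -0.37, -0.10 and 0.04, beside 0.04 for all genes, so those of the cathepsins and membrane proteins did not hold there. With the length and GC trend removed the median of the subunits was -0.17. Transcript length moved with the vector difference here as well, with a median log2 FC of -0.71 for genes under 2000 bases of exon, -0.11 for 2000 to under 5000 and 0.36 above, and with the length and GC trend removed 0 members were called.

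**Figure D3:**
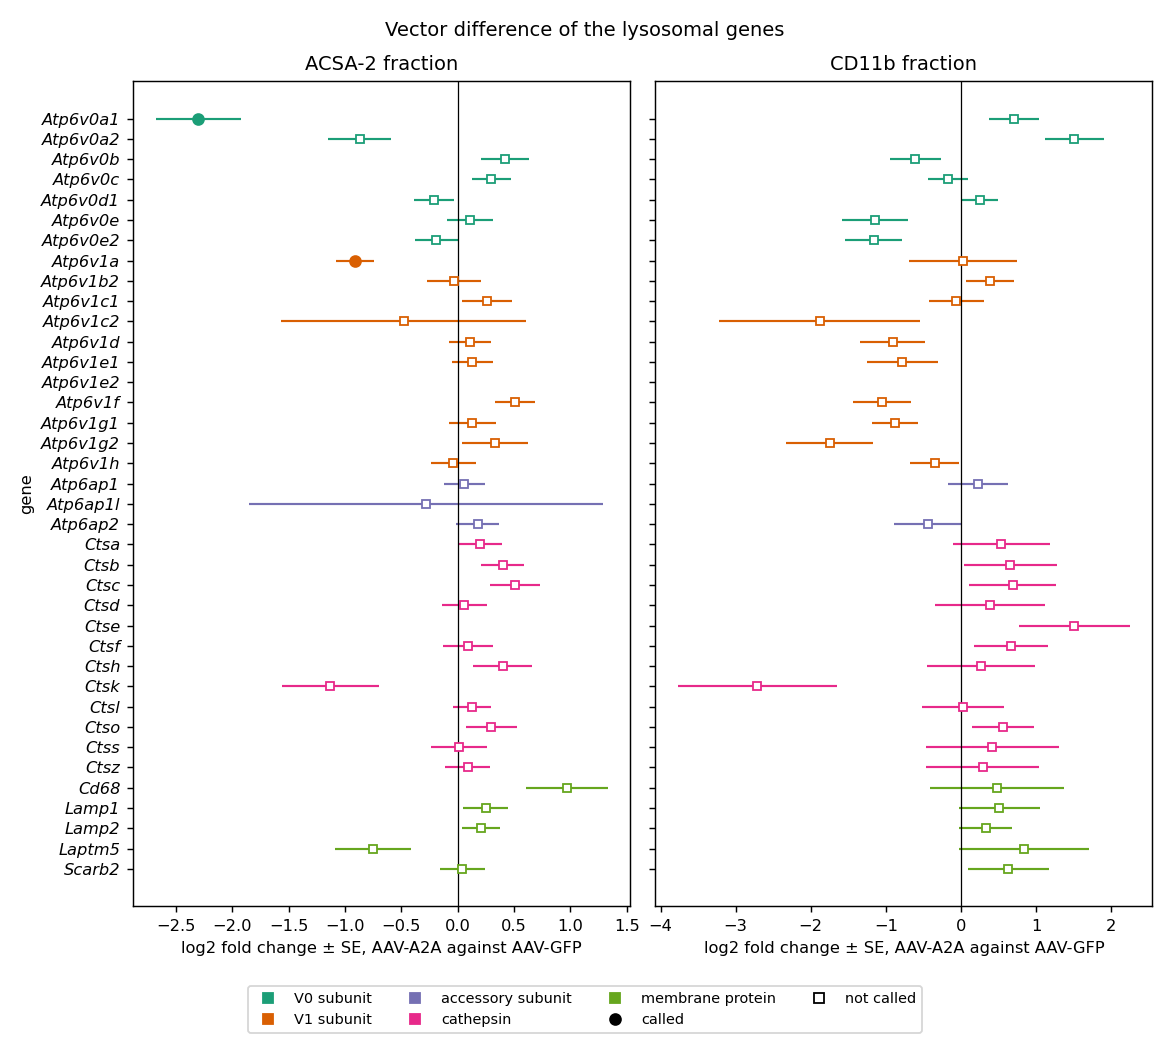
log2 FC of AAV-A2A against AAV-GFP with its SE for each tested member in the ACSA-2 (left) and CD11b (right) fraction, coloured by role, filled where called. Filled symbols are limited to Atp6v0a1 and Atp6v1a in ACSA-2, and the error bars of the cathepsins are wider in CD11b.

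The vector differences of the fractions were then compared in 1 fit of all 12 libraries. Atp6v0a1 was the 1 member called, with a difference of 3.04 ± 0.54 (SE) on the log2 scale between its change in CD11b and in ACSA-2 (edgeR adjusted p = 0.0438), and 0.403% of 18602 genes were called. The values behind it are those above: lower in each treated ACSA-2 library and higher in each treated CD11b library. The call was lost without the libraries rich in choroid plexus markers (2.66, adjusted p = 0.26), with RLE scaling (2.96, adjusted p = 0.0505) and with the length and GC trend removed (2.64, adjusted p = 0.169). It was also lost without GFP-303, GFP-306, GFP-307, A2A-310, A2A-313, GFP-2328, GFP-2329, A2A-2344 or A2A-2347, each left out alone, with adjusted p values from 0.0709 to 0.173. Without GFP-2331 4 members were called and without A2A-2343 3. Atp6v0a2 came next, with a difference of 2.43 ± 0.49 (edgeR adjusted p = 0.0566). DESeq2 called 5 members, Atp6v0a1, Atp6v0a2, Atp6v0b, Atp6v1f and Atp6v1g2, at 10% of all genes called, against 7.13% called by DESeq2 in the ACSA-2 vector comparison, where the members called were the same 2 as with edgeR.

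In AAV-GFP animals, calls between the fractions were more frequent among the proteases and membrane proteins than among the subunits of the pump. In AAV-GFP animals 16 of 38 tested members were called, 14 higher in CD11b and 2 higher in ACSA-2, while over all genes 14.4% were called higher and 12.3% lower. Of the 12 cathepsins 8, 3 of the 5 membrane proteins and 2 of the 3 accessory genes were higher in CD11b, but only 1 of 18 tested subunits. Without GFP-303 the number higher in CD11b was 8, and with the length and GC trend removed it was 9. Leaving out GFP-303, GFP-306, GFP-307, GFP-2328 or GFP-2329 left 1 member higher in ACSA-2, and leaving out A2A-2343 gave 4. Without the libraries rich in choroid plexus markers, where GFP-2331 was the 1 CD11b control left, 12 of the 14 remained called. The fractions stand in separate tables with libraries of different label numbers, so fraction and table cannot be told apart.

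Ctss was at 72.5, 59.4 and 110.1 CPM in the ACSA-2 controls, against the 1819 to 11883 CPM given above, and was 74.7-fold higher in CD11b (log2 FC 6.22 ± 0.83; edgeR adjusted p = 0.00038). Laptm5 was 55.5-fold higher (log2 FC 5.80 ± 0.84; edgeR adjusted p = 0.000653) and Cd68 33.2-fold higher (log2 FC 5.05 ± 0.88; edgeR adjusted p = 0.00187). Even GFP-2328, the CD11b library with the lowest microglia marker sum, was above every ACSA-2 library for these genes. They were followed by Ctsd, the main aspartic protease of the lysosome, at 11.9-fold (519.5 to 653.4 CPM in ACSA-2 controls, 3057 to 13316 CPM in CD11b controls), Ctsc, which activates serine proteases of immune cells (log2 FC 3.45 ± 0.50), Ctsh at 5.66-fold, Ctsz at 5.19-fold, Ctsa, the protective protein of galactosidase, at 3.87-fold, Ctsb at 2.77-fold and Ctsl at 2.56-fold. The sizes of these differences depended on GFP-2331, the control poor in choroid plexus markers. Without it the log2 FC was 5.27 for Ctss, 4.5 for Laptm5, 3.53 for Cd68, 2.73 for Ctsd, 2.78 for Ctsc, 1.81 for Ctsh, 1.33 for Ctsz, 1.17 for Ctsa, 0.80 for Ctsb and 1.02 for Ctsl, in each case the lowest value with a library left out. With GFP-2331 as the 1 CD11b control, the libraries rich in choroid plexus markers being left out, it was 7.23, 6.95, 6.28, 4.51, 4.28, 3.35, 3.42, 2.86, 2.30 and 1.89 in the same order.

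Ctss, Laptm5, Cd68, Ctsd and Ctsc kept their calls without any one library. Without GFP-303 the calls of Ctsa, Ctsb, Ctsh, Ctsl and Ctsz were lost, with adjusted p values from 0.0525 to 0.107. The call of Ctsb was also lost without GFP-306, GFP-307, A2A-310 or GFP-2331 (adjusted p = 0.0888, 0.0709, 0.0507 and 0.126), with the AAV-GFP libraries fitted alone (0.0671) and with the length and GC trend removed (0.0988). That of Ctsl was also lost without GFP-306, GFP-307, A2A-309, GFP-2329 or GFP-2331 (adjusted p = 0.0887, 0.0764, 0.0501, 0.0622 and 0.0989) and with the trend removed (0.131). The exons of Ctsa, Ctsb, Ctsd and Ctsl share 774 to 2137 bases with other genes. Ctsf, Ctso and Lamp1 were not called by edgeR, with log2 FC values of -0.09 ± 0.41, -0.96 ± 0.37 and 0.06 ± 0.41, while DESeq2 called Ctso (log2 FC -0.97, adjusted p = 0.0432).

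Of the accessory genes, Atp6ap2, the prorenin receptor that helps assemble the pump, was at 153.7, 150.7 and 137.8 CPM in ACSA-2 controls and at 473.2, 435.1 and 236.2 CPM in CD11b controls (log2 FC 1.37 ± 0.32; edgeR adjusted p = 0.00905). The 2 controls rich in choroid plexus markers were the high ones, and without such libraries the call was lost (log2 FC 0.71, adjusted p = 0.168). Atp6ap1, the most abundant accessory gene per length in both fractions, was at 316.5, 414.6 and 348.8 CPM against 660.7, 639.1 and 951.7 CPM (log2 FC 1.06 ± 0.29; edgeR adjusted p = 0.0199), and its call was lost without GFP-303 (adjusted p = 0.0811) or GFP-2331 (adjusted p = 0.0533) and with the length and GC trend removed (0.95, adjusted p = 0.062).

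Lamp2, the membrane receptor of chaperone-mediated autophagy, was called between the fractions, and Lamp1 was not. Lamp2 lay at 227.2 to 258.2 CPM in ACSA-2 controls and at 521.4 to 616.1 CPM in CD11b controls (log2 FC 1.23 ± 0.23; edgeR adjusted p = 0.00292). Its log2 FC was 1.1 without the libraries rich in choroid plexus markers (adjusted p = 0.0131), and its call was lost with the length and GC trend removed (0.89, adjusted p = 0.0535). Lamp1 overlapped between the fractions, at 693.1, 824.7 and 1784 CPM in the CD11b controls. The log2 FC of Lamp1 was 0.06 ± 0.41, and 0.78 without the libraries rich in choroid plexus markers, nearer to that of Lamp2. Scarb2, the receptor that carries glucocerebrosidase to lysosomes, was at 117.7 to 133.9 CPM in ACSA-2 controls and at 62.1, 100.4 and 256.5 CPM in CD11b controls (log2 FC 0.15 ± 0.45). The 2 libraries rich in choroid plexus markers were below the ACSA-2 controls and the third above them, and without these libraries the gene was called (log2 FC 1.06, adjusted p = 0.0272).

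In AAV-GFP animals 0 of the 11 V1 subunits were called between the fractions by edgeR. An unadjusted p under 0.05 was found for 2, Atp6v1b2 and Atp6v1c1, which DESeq2 called (adjusted p = 0.0421 and 0.0351). Their log2 FC values were 0.70 ± 0.27 and 0.91 ± 0.32. Atp6v1b2, the B subunit of the catalytic hexamer, was at 99.6, 137.5 and 115.9 CPM in ACSA-2 controls and at 191.6, 173.5 and 206.6 CPM in CD11b controls, without overlap. In the fit that left out the libraries rich in choroid plexus markers 2 V1 genes were called, Atp6v1a (log2 FC -1.22, edgeR adjusted p = 0.0192) and Atp6v1c1 (log2 FC 1.31, edgeR adjusted p = 0.0196).

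Atp6v0e2 was the member with the largest difference toward ACSA-2, at 381.7, 380.6 and 281.7 CPM in controls against 25.2, 39.8 and 18.7 CPM in CD11b (log2 FC -3.64 ± 0.32; edgeR adjusted p = 2.57e-05; log2 FC -4.20 without the libraries rich in choroid plexus markers). The other e gene, Atp6v0e, was at 451.1, 356.1 and 270.4 CPM against 262.8, 272.4 and 156.6 CPM (log2 FC -0.64 ± 0.34; adjusted p by edgeR 0.187). Per length, Atp6v0e2 thus made up 60.4 ± 3.08% (SD, n = 3) of the pair in ACSA-2 controls and 15.7 ± 2.77% in CD11b controls, with 54.9 ± 4.68% and 16.8 ± 5.16% after AAV-A2A. Atp6v0d1, the d subunit that links the rotor to the stalk, was also higher in ACSA-2 (log2 FC -0.76 ± 0.22; edgeR adjusted p = 0.0245), but this call was lost with the AAV-GFP libraries fitted alone (adjusted p = 0.053), between AAV-A2A libraries (log2 FC -0.26, adjusted p = 0.357), with the length and GC trend removed (-0.67, adjusted p = 0.121) and without the libraries rich in choroid plexus markers (-0.44, adjusted p = 0.316). It was also lost without GFP-303, GFP-306, GFP-307, GFP-2328 or GFP-2329, each left out alone, with adjusted p values from 0.0634 to 0.0915. Atp6v0b was the 1 subunit higher in CD11b controls, at 554.3, 621.8 and 599.5 CPM (log2 FC 0.89 ± 0.27; edgeR adjusted p = 0.0291, 0.0512 with the AAV-GFP libraries fitted alone, 0.0636 with the length and GC trend removed, 0.057 without the libraries rich in choroid plexus markers, and 0.0811, 0.0751 and 0.0793 without GFP-306, GFP-307 or GFP-2329), yet its level with AAV-A2A was 482.4, 377.0 and 331.9 CPM in CD11b and 359.3 to 486.4 CPM in ACSA-2 (log2 FC -0.07).

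**Figure D4:**
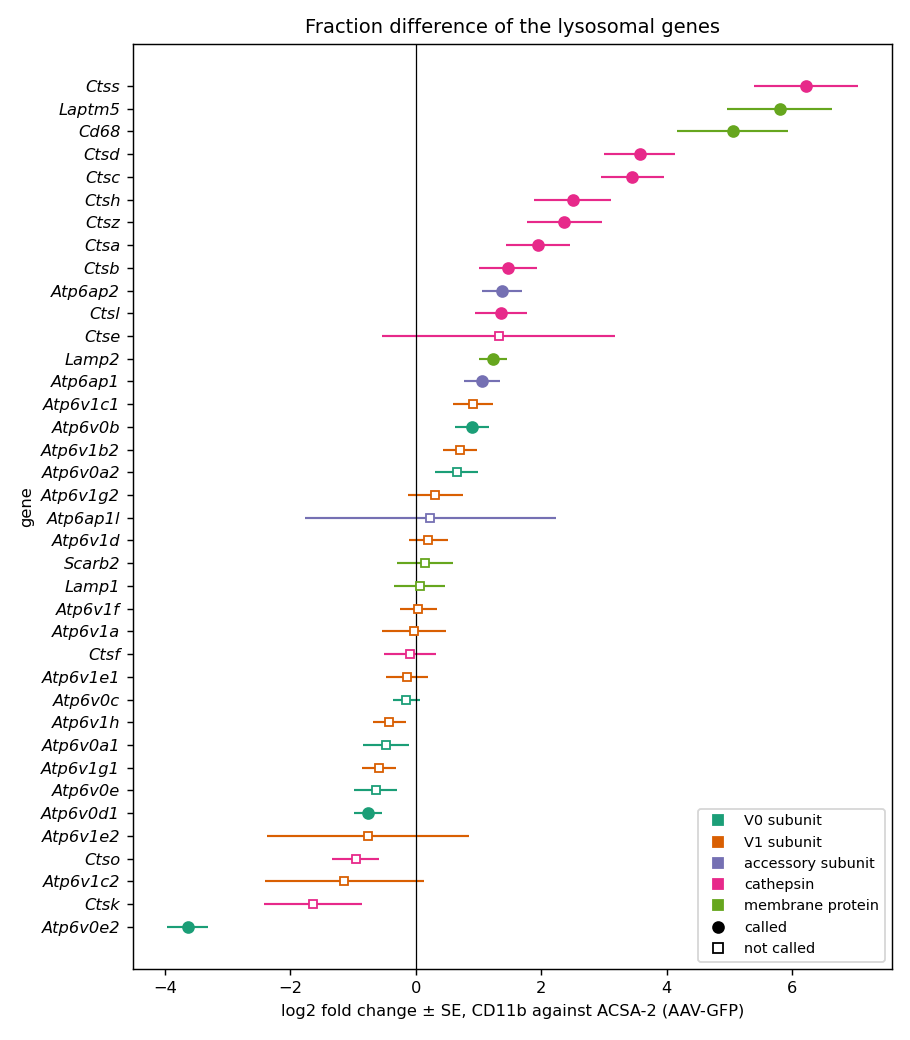
log2 FC of CD11b against ACSA-2 in AAV-GFP animals with its SE, sorted, for the 38 tested members, coloured by role and filled where called. Ctss, Laptm5, Cd68, Ctsd and Ctsc lie above 3, Atp6v0e2 lies at -3.64, and most V1 subunits lie near 0.

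Paralogs were compared per length within each library. Atp6v0d1 held 98.7 to 100% of the d pair, Atp6v1e1 99.2 to 100% of the E pair and Atp6v1c1 94.7 to 100% of the C pair, so that one paralog supplied nearly all transcripts in either fraction. Atp6v1g1 held 87.7 to 98.1% of the G pair. The a pair was mixed: Atp6v0a2 made up 17.0 to 30.0% in ACSA-2 controls, 35.9 to 60.3% in ACSA-2 with AAV-A2A, 36.4 to 45.3% in CD11b controls and 49.4 to 62.1% in CD11b with AAV-A2A. In both fractions the treated libraries had the larger a2 share without overlap with the controls. With 3 libraries against 3 an exact permutation test cannot go below 0.10, and none was run on this share.

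**Figure D5:**
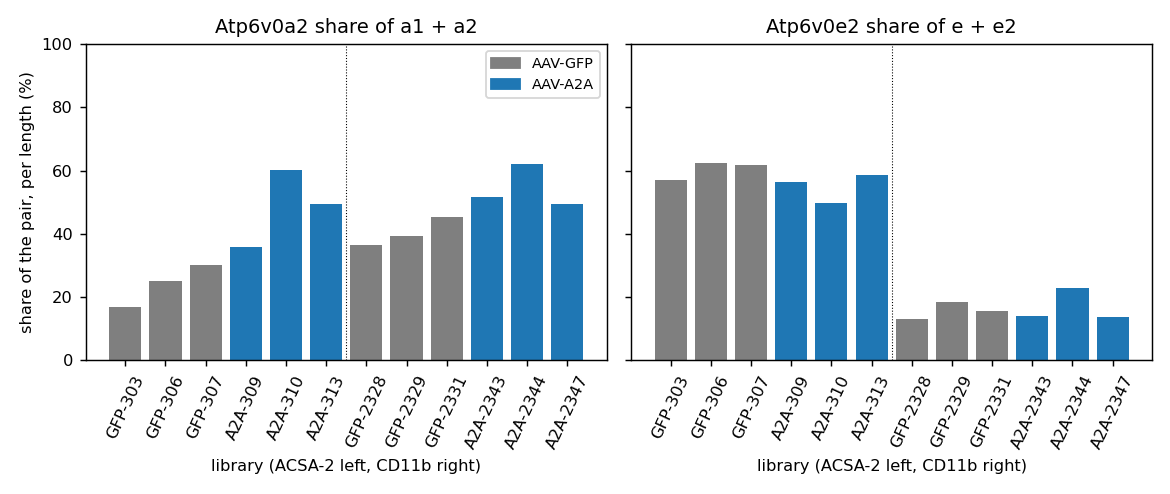
Share of Atp6v0a2 in the a1 and a2 levels (left) and of Atp6v0e2 in the e and e2 levels (right), in percent of CPM per length, for each of the 12 libraries, ACSA-2 left and CD11b right of the dotted line. The e2 share splits the fractions, and the a2 share is higher with AAV-A2A (blue) than with AAV-GFP (grey) in each fraction.

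Between AAV-A2A animals 23 of 38 members were called between the fractions, 15 higher in CD11b and 8 higher in ACSA-2, with 25.0% and 21.0% of all genes called. More subunits were called here than in AAV-GFP animals, but calls over all 18602 genes also rose, from 4968 to 8557. The median log2 FC of the tested subunits was -0.62 here and -0.15 in AAV-GFP animals. Without the libraries rich in choroid plexus markers these medians were -0.5 and -0.37. Of the 18 tested subunits 3 were called higher in CD11b, Atp6v0a1, Atp6v0a2 and Atp6v1b2. The 7 called lower were Atp6v0c, Atp6v0e, Atp6v0e2, Atp6v1e1, Atp6v1f, Atp6v1g1 and Atp6v1g2. Of the 12 cathepsins 8 were called higher and 1 lower, and of the 5 membrane proteins 3 higher. Over all 12 libraries, 14 members were higher in each CD11b library than in any ACSA-2 library and 3 were lower (Atp6v0d1, Atp6v0e2 and Atp6v1g1). For all genes both shares were 15.8%. The 14 members are not the same as those called higher in CD11b in AAV-GFP animals. There Atp6v0b and Ctsb were called but are not among the 14, and Atp6v0a2 and Atp6v1b2 are among them but were not called. In AAV-A2A animals Atp6v0a2 was called (log2 FC 3.08 ± 0.37; edgeR adjusted p = 9.75e-05).

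The surrounding lysosomal genes were read from 6 further lists, 120 genes in all. In the ACSA-2 fraction 9 of the 115 tested were called with AAV-A2A, all lower: 5 of 46 hydrolases and cofactors, 3 of 30 membrane proteins and transporters and 1 of 16 genes of the Ragulator, Rag and mTORC1 list, with 0 of 9 for mannose 6-phosphate sorting, 0 of 10 for pump assembly and regulation and 0 of 4 cystatins. Over all tested genes 3.19% were called lower. Plbd2, a phospholipase-like lysosomal protein, was at 2165, 2096 and 2214 CPM against 732.1, 523.7 and 728.4 CPM (log2 FC -1.68 ± 0.19; edgeR adjusted p = 0.00226). Sidt2, a lysosomal membrane protein linked to RNA uptake, was at 166.0, 166.7 and 153.6 CPM against 69.9, 56.7 and 61.2 CPM (log2 FC -1.34 ± 0.17; edgeR adjusted p = 0.00306). Each of these genes kept its call without any one library.

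Tpcn1, a two-pore ion channel of endolysosomes, fell by 1.31 ± 0.17 on the log2 scale (edgeR adjusted p = 0.0035), Scpep1, a serine carboxypeptidase, by 1.52 ± 0.20 (adjusted p = 0.00406), Gusb, β-glucuronidase, by 1.33 ± 0.19 (adjusted p = 0.00499) and Npc1, the cholesterol exporter, by 1.83 ± 0.29 (adjusted p = 0.00776). In the joint fit of 12 libraries none of these 6 genes passed, with adjusted p values from 0.0514 for Sidt2 to 0.436 for Gusb. In the CD11b fraction 0 of 117 tested genes of these lists were called by edgeR, with 28 at an unadjusted p under 0.05, beside 0% of all genes called. DESeq2 called 9 of 117, all higher, beside 2.9% of all genes. For the difference of the vector effect between the fractions, DESeq2 called 13 of 117 tested genes of the lists with a higher log2 FC in CD11b and 2 with a lower one. Over all genes DESeq2 called 10%. By edgeR Sidt2 was the 1 gene of the lists called for this difference, at 2.82 ± 0.40 (edgeR adjusted p = 0.0438). In CD11b Sidt2 was at 68.9, 57.2 and 107.8 CPM with AAV-GFP and at 189.1, 278.3 and 170.2 CPM with AAV-A2A. The call was lost without the libraries rich in choroid plexus markers (2.49, adjusted p = 0.144), with total counts (2.65, adjusted p = 0.0562), with the length and GC trend removed (2.27, adjusted p = 0.169) and without any one of GFP-303, GFP-306, GFP-307, A2A-310, A2A-313, GFP-2328, GFP-2329, A2A-2344 and A2A-2347 (adjusted p values from 0.0669 to 0.169). Between the fractions 41 of 118 genes of the lists were called higher in CD11b controls and 10 lower, beside 14.4% and 12.3% of all genes.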

How the data were processed

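RNA of bead-sorted ACSA-2 and CD11b suspensions of mouse hippocampus was measured in 12 libraries, 3 per fraction and vector. The deposited values are raw read counts per Ensembl gene: per the labels and methods, the authors amplified full-length cDNA, trimmed reads with cutadapt 1.10, aligned them to mm10 with STAR 2.5.3 and counted unique reads with HTSeq 0.6.1p1. Reads overlapping 2 genes are dropped by such counting, the strand setting is not given in the sources used here, and 14 of the 40 members share exon bases with another gene. Reads carry no molecular identifiers, so precision from depth covers counting error only. The labels do not say whether each library is 1 mouse, while the paper gives 3 animals per group for a figure of the astrocyte data. The p values measure the spread between these libraries.

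Names, lengths and positions came from GENCODE of GRCm38, in which 27813 of 27866 and 30289 of 30359 identifiers were found, and start windows from RefSeq (GRCm38.p6). Groups were taken from the labels. Each fraction was tested with edgeR 4.0.16 (TMM, filterByExpr, robust quasi-likelihood fit) in R 4.3.3, and fractions and their interaction in a fit of all 12 libraries. Printed CPM use the scaling of all 12 libraries, while fold changes come from each fit. Alternatives were DESeq2 1.42.0, limma 3.58.1 (voom), a different scaling or filter, and leaving out each library. The correction for length and GC content and the fits without libraries with over 10000 CPM of Ttr were chosen after seeing the data. The tests were checked on simulated counts. No 2 libraries of a group agreed within sampling noise (lowest chi-square per degree of freedom 51.6). Figures were drawn with matplotlib 3.10.9.

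The members and lists were chosen with earlier results of these data known. Values in every library are given for members called between vectors or in the interaction, for the member of each role with the highest level per length in each fraction's controls and with the largest called fraction difference in each direction, for Cd68 and, by counts, for members too low for a test. With 0 calls in CD11b the 3 smallest unadjusted p values were named. Of the other lists, up to 6 called genes were named per fraction, by adjusted p. Further members, such as Ctsd and Ctsk, are named beyond it, picked once their values had been seen.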

Additional observations from a re-analysis of the deposited data

Results flagged for a closer look

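The vector difference of Atp6v0a1 differed between the fractions by 3.04 on the log2 scale (CD11b minus ACSA-2) by the interaction term of edgeR's fit of 12 libraries (adjusted p = 0.0438). It was lower in 3 of 3 treated ACSA-2 libraries and higher in 3 of 3 treated CD11b libraries. The difference lay between 2.69 and 3.44 when each library was left out in turn, and 3 of these 12 fits kept the call. By the same term Sidt2, a lysosomal membrane protein outside the 40 genes, differed by 2.82 (edgeR adjusted p = 0.0438), between 2.58 and 3.13 with a library left out, and 3 of 12 fits kept the call. With 3 libraries per group, no test for single outlying libraries was made.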

How the results depend on the processing

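No paired analysis was possible because the groups share no replicate numbers. In ACSA-2 the 2 called members became 1 in the joint fit of 12 libraries and 0 to 2 with a library left out. In CD11b the 0 called became 1 with DESeq2 and stayed 0 with each library left out. The 14 members higher in CD11b became 9 with the length and GC trend removed and 8 to 15 with a library left out, 8 being without GFP-303. The 2 higher in ACSA-2 became 1 with the 6 AAV-GFP libraries alone or the trend removed, 8 between AAV-A2A libraries and 1 to 4 with a library left out. The 1 interaction call became 0 with RLE scaling, total counts, the trend removed or without the libraries rich in choroid plexus markers, 5 with DESeq2, 2 with at least 10 counts in every library and 0 to 4 with a library left out. The cause was not tested. Of 578 refitted log2 FC values of named genes, 498 kept direction and call, 76 lost the call, 1 gained it and 3 changed sign: Atp6v0b between the fractions in AAV-A2A animals (-0.07), and Cd68 in CD11b without A2A-2343 (-0.07, the lowest of its values with a library left out, the highest being 1.94 without GFP-2331) or without the libraries rich in choroid plexus markers (-0.37). The 498 include refits of the fraction difference in AAV-GFP animals without an AAV-A2A library, which could hardly change its size. They also include genes that were not called in the main fit and stayed uncalled. The 498 are therefore no measure of robustness. Where a fit left 1 library in a group, that library was taken to vary like the others. Total-count scaling moved the median log2 FC of all genes from -0.05 to -0.17 in CD11b, from 0.11 to 0.23 between the fractions and from -0.10 to -0.29 in the interaction. Over all genes, the ACSA-2 calls numbered 553 with edgeR, 1277 with DESeq2 and 156 in the joint fit; in CD11b they were 0 and 502 with edgeR and DESeq2, and in the interaction 75 and 1740. Members with 0 counts in a library were not detectable at its depth.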
